A study of Homo sapiens with 12 samples.

Results

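Transcript levels after 24 h of dasatinib were set against those after 4 h of the same drug in K562, a human line from a patient with chronic myeloid leukaemia. The comparison holds all samples titled as dasatinib for 24 h or for 4 h, which are 6 of the 12 arrays in the series. Cells of both groups received 100 nM dasatinib in medium with 0.1% serum, after growth in 10% serum, and each group has 3 arrays. The other 6 arrays are 3 at 8 h of 100 nM dasatinib and 3 at 24 h of 0.2% DMSO, the vehicle, and they are cited only to place a level. The vehicle was harvested at 24 h alone, so the length of drug exposure and the time spent in low serum differ together between 24 h and 4 h, and their parts cannot be told apart. K562 is 1 line with its own erythroid bias, and nothing in the labels ties the replicate arrays to separate cultures. The p-values therefore measure only the spread between these samples.

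As background, the BCR-ABL1 fusion kinase of this line drives the RAS-ERK, STAT5 and PI3K pathways, which keep the cells dividing and hold back erythroid maturation. Dasatinib blocks ABL and the SRC family of kinases, and the title of the study sets short against long inhibition of BCR-ABL. Erythroid maturation is run by GATA1, KLF1 and TAL1, which switch on globins, haem synthesis and the red cell membrane, while a growing cell spends much of its transcription on ribosome assembly and the supply of amino acids and nucleotides.

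Levels are given as normalized log2 signals of 1 probe per gene, and changes as log2 fold changes of 24 h minus 4 h with the standard error (SE) of the limma fit, 3 arrays against 3. A gene was called when its p, adjusted over the 10208 genes tested by the Benjamini-Hochberg method, was under 0.05. The 6 arrays had median raw signals of 134 to 160 and detected 17175 to 18592 of 47314 probes. Across genes, which are not independent replicates, Pearson's r was 0.991 to 0.992 among the 24 h arrays, 0.989 to 0.99 among the 4 h arrays and 0.948 to 0.954 between the groups. Erythroid genes that define the line were bright on all 6 arrays, as HBG1, HBZ, GATA1 and EPOR show below.

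At 24 h 4668 of 10208 genes were called (45.7%), 2366 higher (23.2%) and 2302 lower (22.6%), with a median change over all genes of 0.002. At 2-fold or more 1002 genes were called (9.82%), 590 higher (5.78%) and 412 lower (4.04%). The arrays of 24 h and 4 h did not overlap for 5447 genes (53.4%). The interquartile range of the changes ran from -0.33 to 0.36. Counts of called list members below are to be read beside the shares of 23.2% higher and 22.6% lower. The 8 h arrays divide this interval: 1151 genes were called at 8 h against 4 h (11.3%) and 3647 at 24 h against 8 h (35.7%), comparisons that share arrays with each other and with the one described here.

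CA1, the carbonic anhydrase of the red cell, had the largest rise among genes detected on all 6 arrays. Its signals were 12.24, 12.22 and 12.14 at 24 h, against 7.45, 7.01 and 6.37 at 4 h. The groups lay far apart, and the rise was 5.26 (SE 0.29, 38.3-fold, adjusted p = 9.3e-08). ALAS2, the erythroid enzyme that starts haem synthesis, followed with 13.72, 13.42 and 13.40 at 24 h, against 9.35, 9.51 and 8.61 at 4 h, a rise of 4.35 (SE 0.28, 20.5-fold), while its other probes gave 1.72 to 3.22. COL18A1, a basement membrane collagen, rose by 4.21 (SE 0.21), but its other probe gave only 0.87. FAXDC2, a fatty acid hydroxylase domain protein, rose by 3.92 (SE 0.19), its other probe giving 2.39, and ASCL2, a basic helix-loop-helix factor, by 3.60 (SE 0.15). TF, the iron carrier transferrin, rose by 3.26 (SE 0.09). FEZ1, a transport adaptor best known in axons, rose by 3.52 (SE 0.24), while its other probes gave 0.39 to 1.40. The remaining 8 of the 15 largest rises were structured noncoding RNAs, which are described in their own paragraph.

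MT1X, a metallothionein that binds zinc and copper, had the largest fall. Its signals were 6.29, 5.82 and 5.89 at 24 h, against 9.40, 9.45 and 10.51 at 4 h. Array C stood highest at 4 h, and the groups did not overlap. MT1X thus fell by 3.79 (SE 0.28, adjusted p = 8.2e-07), a 13.8-fold difference, and the 24 h mean lay near that of the vehicle, 6.20. CD3D, a chain of the T cell receptor complex, was measured at 6.64, 6.77 and 6.37 at 24 h, against 9.91, 9.94 and 9.93 at 4 h, and fell by 3.34 (SE 0.12), with its other probe at -3.26. VGF, the precursor of secreted neuropeptides, read 6.18, 6.61 and 6.21 at 24 h, against 9.20, 9.55 and 9.95 at 4 h, and fell by 3.23 (SE 0.23). None of these genes overlapped between the groups. SLC25A22, a mitochondrial glutamate carrier, fell by 2.78 (SE 0.10), CD24, a surface sialoglycoprotein, by 2.58 (SE 0.29), and FABP5, a fatty acid binding protein, also by 2.58 (SE 0.17), with its other probe at -1.97. SLC39A14, a zinc and iron importer, fell by 2.47 (SE 0.11), S100A11, a calcium-binding protein, by 2.23 (SE 0.16) and SCG3, a secretory granule protein, by 2.31 (SE 0.17), with its other probe at -1.59.

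**Figure D1:**
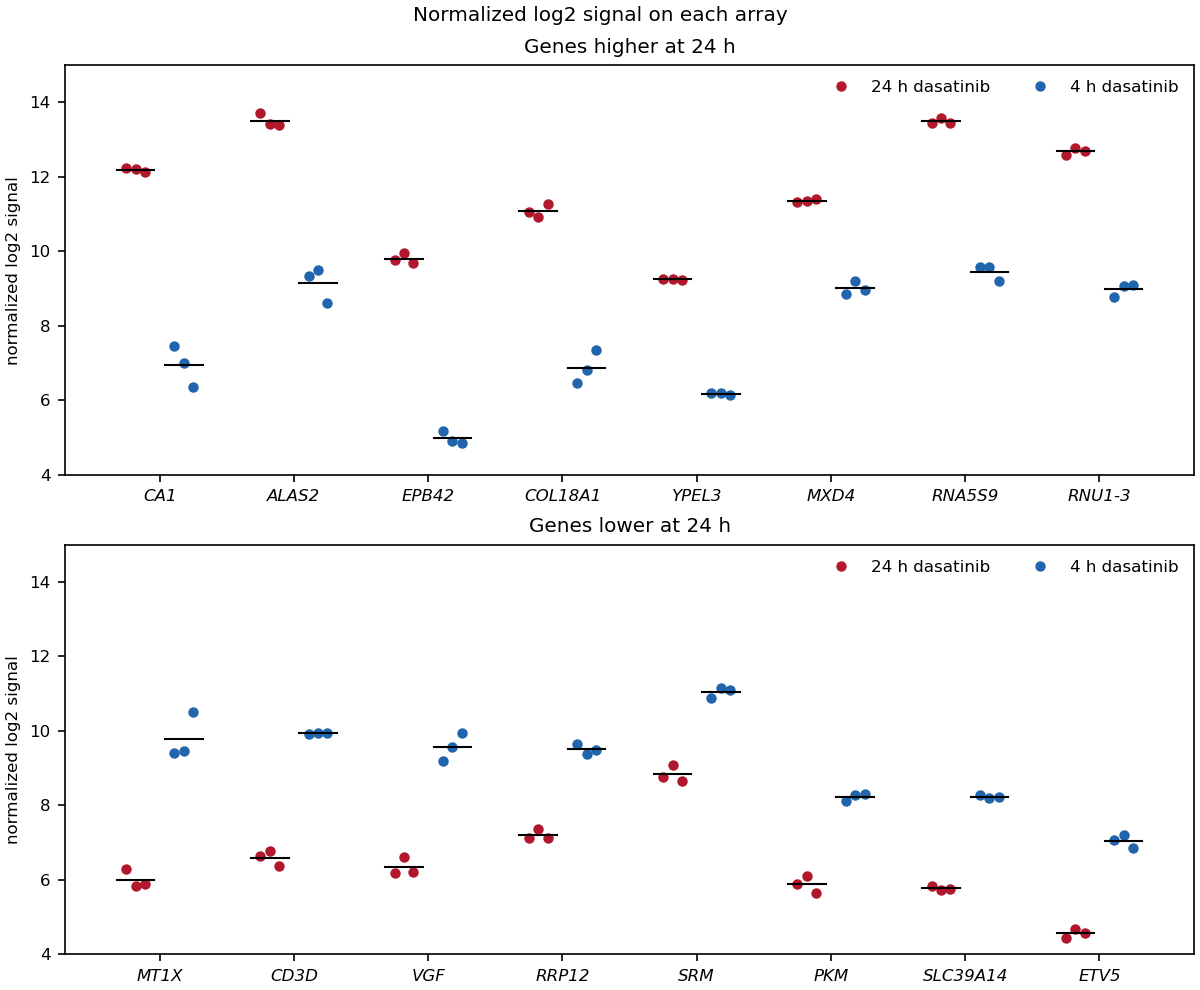
Normalized log2 signal on each array for 8 genes higher at 24 h (top) and 8 genes lower at 24 h (bottom), with 24 h dasatinib in red to the left of 4 h dasatinib in blue. Points are arrays and black lines are means of 3 arrays, and for none of the 16 genes do the groups overlap.

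For genes undetected on all 3 arrays of 1 group, only a bound can be given. SLC4A1, which encodes band 3, the chloride and bicarbonate exchanger of red cells, read 10.16, 9.67 and 10.24 at 24 h and was undetected at 4 h, a difference of at least 26.4-fold. EPB42, the band 4.2 protein that links band 3 to the skeleton, read 9.76, 9.96 and 9.70 at 24 h and was at least 22.7-fold higher. ANO1, a calcium-activated chloride channel, was at least 15.3-fold higher, CLIC3, a chloride channel family protein, at least 8.98-fold, AQP1, the water channel of the red cell, at least 7.59-fold, ALDH3B1, an aldehyde dehydrogenase, at least 7.26-fold, LGALS3, a galactose-binding lectin, at least 5.71-fold and DMTN, dematin of the red cell skeleton, at least 5.59-fold. In the other direction NTS, the neurotensin precursor, was at least 4.73-fold lower at 24 h, CAMKV, a kinase-like vesicle protein, at least 3.97-fold, HJV, the BMP co-receptor hemojuvelin, at least 3.92-fold and ETV5, an ETS factor induced by ERK, at least 3.55-fold. INPP1, an inositol phosphatase, was at least 2.47-fold lower, PPP1R27, a phosphatase regulator, at least 2.13-fold, NOS3, the endothelial nitric oxide synthase, at least 2.06-fold and F2RL3, a thrombin receptor, at least 2.04-fold. Each bound rests on 1 probe of its gene and holds only under the background correction used here. Without that correction the log2 change was 2.47 for ANO1, 1.53 for ALDH3B1 and 1.47 for AQP1. With the authors' values it was 1.54, 0.86 and 0.84, so these 3 changes lay under their bounds in both settings. Other probes gave smaller changes for ANO1 (3.05 to 3.21), AQP1 (1.78), HJV (-1.06) and PPP1R27 (-0.79), and ETV5 is described with the ERK genes. In all, 177 of the 10208 genes were detected on every 24 h array and no 4 h array, and 51 the other way round. The 24 h arrays also detected more probes, 18488 to 18592, against 17175 to 18172 at 4 h. The part of this difference in the 2 counts was not tested.

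In each of 5 erythroid lists more members rose than fell at 24 h. Of 13 measured genes of haem synthesis 10 rose and 0 fell, with a median of 1.33, where all genes tested had 23.2% higher and a median of 0.002. Along the pathway, ALAS2 starts it, ALAD follows at 9.64, 9.61 and 9.69 at 24 h, against 7.43, 7.61 and 7.50 at 4 h, and PPOX, the penultimate enzyme, read 12.58, 12.66 and 12.56 at 24 h, against 10.40, 10.55 and 10.18 at 4 h. ALAD thus rose by 2.13 (SE 0.14), although its other probe gave 0.01, and PPOX rose by 2.22 (SE 0.13). SLC25A37, mitoferrin, which imports iron into mitochondria, rose by 2.93 (SE 0.12). FECH, which inserts the iron, rose by 1.61 (SE 0.14), CPOX, the coproporphyrinogen oxidase, by 1.33 (SE 0.15), UROS, the uroporphyrinogen synthase, by 1.11 and UROD, the decarboxylase, by 0.39. The housekeeping enzyme ALAS1 gave -0.47 (SE 0.20, adjusted p = 0.074), so the form whose rise passed the test was the erythroid one.

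Of 21 red cell membrane genes 17 rose and 1 fell, with a median of 1.25. Beside band 3 and band 4.2, RHCE, a carrier of Rh antigens, read 9.41, 9.26 and 9.60 at 24 h, against 6.48, 6.21 and 6.67 at 4 h, and rose by 2.97 (SE 0.15). Its near-identical copy RHD rose by 2.83 (SE 0.21), and cross-hybridization between the pair cannot be told apart here. KEL, the Kell blood group protein, rose by 2.05, XK, its membrane partner, by 1.56, SPTB, beta spectrin, by 1.25, and ANK1, which anchors spectrin to band 3, by 1.12. STOM, stomatin, was the member that fell, by 0.75 (SE 0.14), with its other probe at -0.25. ADD2, CD44 and EPB41 did not pass the test, at -0.21, -0.33 and 0.26.

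Of 10 measured genes of the globin list 7 rose and 0 fell, with a median of 0.73. HBE1, the embryonic epsilon globin, read 13.03, 12.90 and 13.08 at 24 h, against 11.07, 11.11 and 11.08 at 4 h, a rise of 1.92 (SE 0.10). AHSP, the chaperone of free alpha globin, read 13.06, 12.82 and 12.73 at 24 h, against 10.12, 10.29 and 9.41 at 4 h, a rise of 2.93 (SE 0.29). HBZ, embryonic zeta globin, rose by 0.79 (SE 0.21), HBQ1, theta globin, by 0.86 (SE 0.11), HBD, delta globin, by 1.06 (SE 0.10), HBB, adult beta globin, by 0.66 (SE 0.14) and HBA1 by 0.34 (SE 0.10). HBG1, fetal gamma globin, gave 0.11 (SE 0.09, adjusted p = 0.33) and HBA2, alpha globin, 0.02 (SE 0.08, adjusted p = 0.90). Both lay between 14.29 and 14.48 on the 6 arrays, at the top of the signal range, and HBA1 with HBA2 and HBG1 with HBG2 are near-identical copies.

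Of 16 erythroid transcription factors 10 rose and 1 fell, with a median of 0.69. LMO2, the bridge protein of the GATA1 and TAL1 complex, read 12.02, 12.07 and 11.81 at 24 h, against 10.29, 10.16 and 10.26 at 4 h, and rose by 1.73 (SE 0.11). ZFPM1, the GATA1 cofactor, rose by 1.66 (SE 0.14), NFE2, a factor of the globin enhancers, by 1.32 (SE 0.09) and TAL1 by 1.18 (SE 0.10). The rises of KLF1, 0.68 (SE 0.10), and GATA1, 0.45 (SE 0.12), were smaller, and with arrays scaled to a common median in place of quantile normalization GATA1 was no longer called. GATA2, which marks immature progenitors and gives way to GATA1, read 6.14, 5.99 and 5.45 at 24 h, against 6.76, 6.57 and 7.05 at 4 h, and fell by 0.93 (SE 0.19). MYB, a progenitor factor, gave -0.11 (SE 0.12, adjusted p = 0.48).

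Other erythroid enzymes and carriers added 18 rises and 0 falls among 26 measured genes, with a median of 0.92. SELENBP1, a selenium-binding protein abundant in red cells, rose by 2.61 (SE 0.15), HEMGN, hemogen, by 1.85 (SE 0.16) and BPGM, which makes the oxygen affinity regulator of the red cell, by 1.80 (SE 0.17). EPOR, the erythropoietin receptor, rose by 1.28 (SE 0.12), with 9.97, 10.27 and 9.90 at 24 h, against 8.74, 8.69 and 8.87 at 4 h. CA2, the second red cell carbonic anhydrase, rose by 0.91 (SE 0.18). Among iron genes, SLC11A2, an iron importer, rose by 1.41, TFR2, a transferrin sensor, by 1.29, and TFRC, the transferrin receptor, by 0.44 (SE 0.09), a call lost under median scaling. Array C was the lowest of its group for CA1, ALAS2 and AHSP in each of the 4 groups, the 24 h group included. On arrays A and B at 4 h these genes still lay at least 2 log2 units under every 24 h array. With the replicate letter as a block the SE of AHSP was 0.15, against 0.29 without it.

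**Figure D2:**
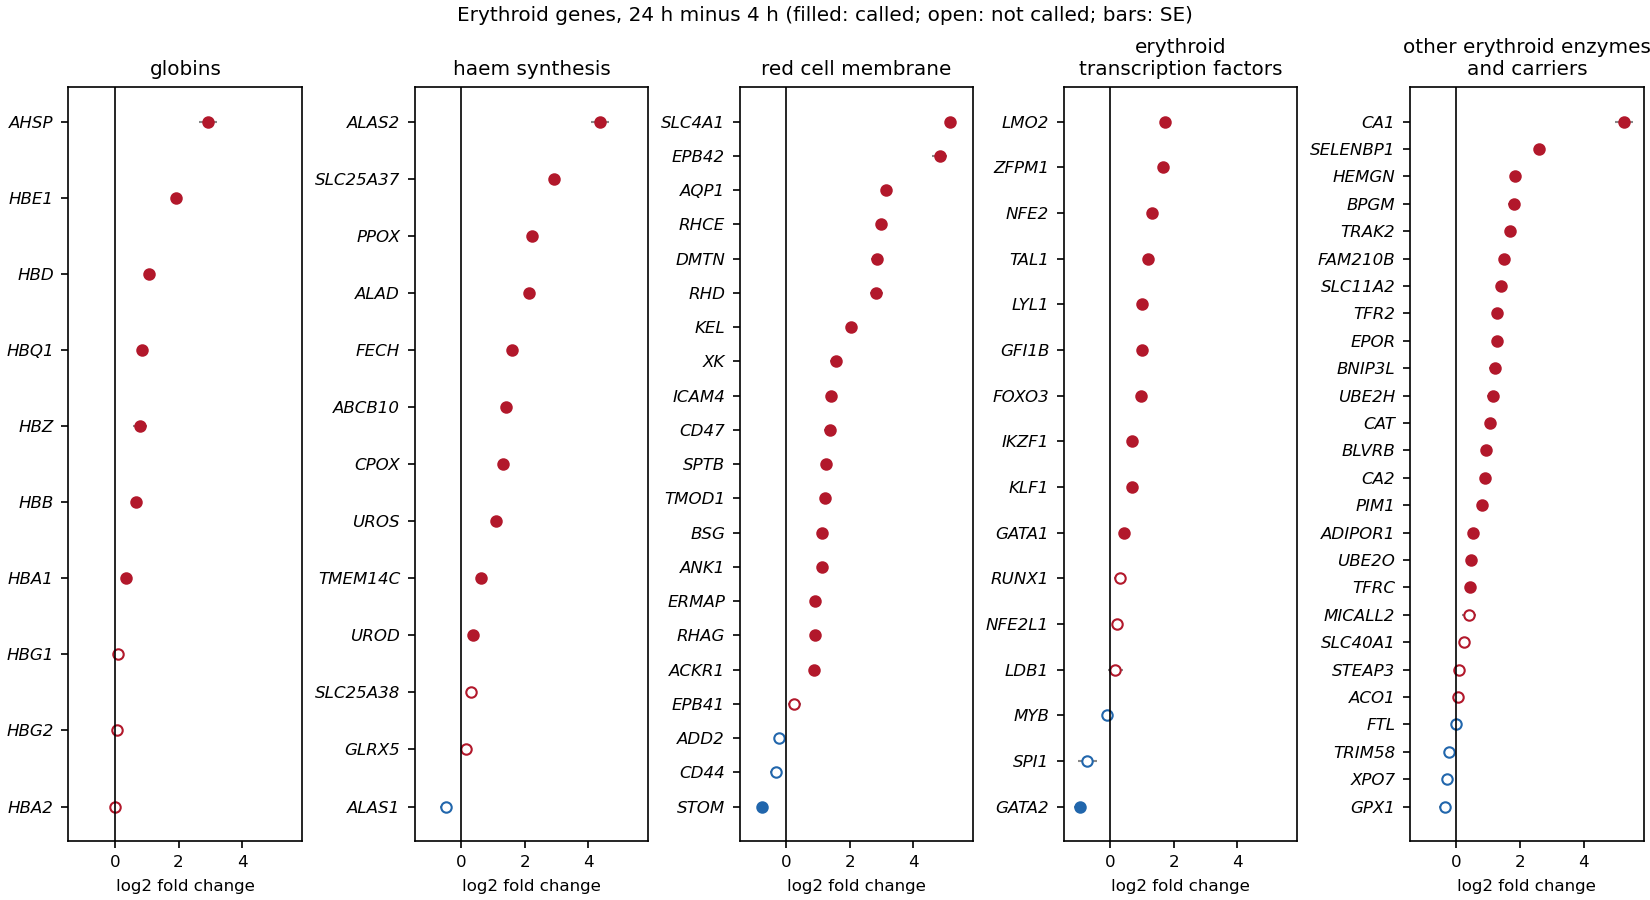
Log2 fold change, 24 h minus 4 h, of each measured erythroid gene in 5 lists, with bars for the SE over 3 arrays against 3, filled points for called genes and open points for genes that were not called. CA1, SLC4A1, EPB42 and ALAS2 lie above 4, while HBA2, HBG1 and HBG2 lie near 0, and STOM and GATA2 are the 2 filled points below 0.

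The promoters of erythroid genes were read for AGATAA, a letter string that GATA factors bind, on both strands and over 250 bases before to 50 after each start in RefSeq sequence of the build GRCh38.p14. It was present in 8 of 24 promoters of the red cell membrane list (33.3%) and 3 of 13 of haem synthesis (23.1%). The share was 5.84% among the promoters of all genes tested and 10.3% among all RefSeq promoters read. Promoters were at hand for 16 of the 21 measured membrane genes and 11 of the 13 of haem synthesis. The 250 bases before the start of ALAS2 (chrX:55030978-55031227, minus strand) and of EPB42 (chr15:43221019-43221268, minus strand) are shown because these genes had the largest differences among members with a match, with AGATAA or its reverse complement in capitals.
ALAS2: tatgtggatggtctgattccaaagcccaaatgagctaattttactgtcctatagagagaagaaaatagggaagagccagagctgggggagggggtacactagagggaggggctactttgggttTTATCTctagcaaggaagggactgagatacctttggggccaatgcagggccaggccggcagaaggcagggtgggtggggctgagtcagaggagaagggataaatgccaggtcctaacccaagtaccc
EPB42: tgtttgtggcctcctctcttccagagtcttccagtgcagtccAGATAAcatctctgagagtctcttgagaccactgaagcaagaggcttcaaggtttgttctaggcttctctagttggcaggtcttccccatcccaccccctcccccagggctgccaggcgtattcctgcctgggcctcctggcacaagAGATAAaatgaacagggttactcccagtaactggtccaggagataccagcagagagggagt
A match describes these letters only and does not show that the factor binds there.

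Markers of other blood and tissue cells gave few measured genes. Of 22 megakaryocyte and platelet genes 7 were measured, of which 1 rose and 1 fell. TUBB1, the beta tubulin of platelets, read 11.07, 11.18 and 11.06 at 24 h, against 8.24, 7.95 and 8.10 at 4 h, and rose by 3.01 (SE 0.21). ITGA2B, ITGB3, GP9 and PF4, which define the lineage, did not pass the detection filter, PPBP, a platelet chemokine, gave -0.10 and GP1BA, a platelet adhesion receptor, 0.02, neither called, and F2RL3 was lower as above. The mean level of the list was 6.42 to 6.43 at 24 h, against 6.18 to 6.24 at 4 h. Of 15 granulocyte and monocyte markers 3 were measured, and LYZ, lysozyme, fell by 1.93 (SE 0.22), with its other probe at -0.84, while CD14 and FPR1 lay near background and MPO, ELANE, ITGAM and CSF1R did not pass. The mean level of the 3 was 5.55 to 5.75 at 24 h, against 6.33 to 6.50 at 4 h. Of 12 lymphoid markers 2 were measured, CD3D as above and PTPRC, near background at 5.07 at 24 h and 5.21 at 4 h, and CD3E, MS4A1, CD79A and LCK did not pass. Their mean level was 5.79 to 5.87 at 24 h, against 7.49 to 7.63 at 4 h. Of 12 fibroblast and epithelial markers 4 were measured. COL1A2, a chain of type I collagen, fell by 2.33 (SE 0.10), its other probe giving -1.75, and EPCAM, an epithelial adhesion molecule, by 0.70 (SE 0.11), while DCN, a defining fibroblast gene, gave 0.05 near background. Those 4 averaged 7.34 to 7.44 at 24 h, against 8.14 to 8.31 at 4 h, with COL1A1, COL3A1 and CDH1 not passing. The part of such transcripts in the other results was not tested. In RNA from a whole culture, fewer cells with a transcript and less of it per cell cannot be told apart.

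The ERK pathway carries growth signals to ETS and AP-1 factors. Of 16 measured genes of ERK output 7 fell and 1 rose, with a median of -0.27. ETV5 read 4.43, 4.68 and 4.58 at 24 h, against 7.06, 7.21 and 6.86 at 4 h and a vehicle mean of 8.69, and its other probe gave -0.35. ETV4, its relative, fell by 1.19 (SE 0.19) and was detected on 1 of 3 arrays at 24 h, and MYEOV, which lies beside the cyclin D1 gene, was at least 1.84-fold lower. KCNN4, a calcium-activated potassium channel that red cells carry, was the member that rose, by 1.41 (SE 0.11). The feedback inhibitors SPRY4, SPRY2 and DUSP6 did not differ by the test, and each lay at or near background at both times. SPRY4 gave 0.00 and SPRY2 0.07, with vehicle means of 7.1 and 6.61. DUSP6, the ERK phosphatase, gave 0.08 (SE 0.20, adjusted p = 0.76), with means of 5.43 at 24 h and 5.35 at 4 h. It was detected on 2 of 3 arrays at 4 h, and its vehicle mean was 5.58. CCND1, the D cyclin tied to ERK, was undetected on all 6 arrays, where the vehicle mean was 6.8.

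Of 16 immediate early genes 4 rose and 4 fell, with a median of 0.02, shares near those of all genes tested (23.2% higher, 22.6% lower). EGR1, the immediate early zinc finger factor, read 6.38, 5.98 and 6.47 at 24 h, against 6.25, 6.07 and 5.66 at 4 h, with overlapping groups and a vehicle mean of 9.88. KLF10, a growth-inhibitory Krüppel-like factor, was undetected at 4 h and at least 2.01-fold higher at 24 h. DUSP1, a MAP kinase phosphatase, read 10.03, 10.06 and 10.00 at 24 h, against 8.97, 8.96 and 8.62 at 4 h, and rose by 1.18 (SE 0.13). JUNB, an AP-1 subunit, rose by 0.80 (SE 0.17) and was detected on 1 of 3 arrays at 4 h, whereas ATF3, a stress-induced AP-1 relative, fell by 0.95 (SE 0.20).

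Of 9 STAT5 and cytokine feedback targets 4 rose (44.4%) and 3 fell (33.3%), where all genes tested had 23.2% higher and 22.6% lower. PIM1, a survival kinase, rose by 0.81 (SE 0.14), with 9.24, 9.09 and 9.24 at 24 h, against 8.47, 8.51 and 8.15 at 4 h, below the vehicle mean of 10.92. Its relative PIM2 fell by 1.22 (SE 0.09) and SOCS2, a suppressor of cytokine signalling, by 0.88 (SE 0.12). CISH, a further feedback inhibitor, was undetected on all 6 arrays, where the vehicle mean was 7.27. In the ID family, which blocks basic helix-loop-helix factors, ID2 rose by 1.49 (SE 0.18), with 9.26, 9.44 and 9.28 at 24 h, against 7.87, 7.72 and 7.92 at 4 h. ID1 rose by 0.36 (SE 0.13, adjusted p = 0.042), a call that 10 of the alternatives end, and lay far under its vehicle mean of 8.95. SMAD6, an inhibitor of BMP signalling, rose by 0.81 (SE 0.11).

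Of 16 JAK, STAT and cytokine receptor genes 7 rose and 0 fell, with a median of 0.42. Beside EPOR they included STAT5B, which rose by 1.11 (SE 0.09), JAK2, the kinase of the erythropoietin receptor, by 0.97 (SE 0.23), and IL6ST, the shared receptor chain gp130, by 1.01 (SE 0.14). ABL1, a kinase that dasatinib blocks, gave 0.06 (SE 0.11), and BCR, its partner in the fusion, 0.15 (SE 0.22), neither called. LYN, the main SRC family kinase of myeloid cells, read 10.01, 10.10 and 9.89 at 24 h, against 11.15, 11.09 and 11.16 at 4 h, and fell by 1.14 (SE 0.09). SRC, detected on 2 of 3 arrays at 24 h, fell by 1.04 (SE 0.18) and CSK, the inhibitor of the family, by 0.52 (SE 0.12). In this list 3 of 12 fell and 0 rose, a falling share near the 22.6% of all genes tested.

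MYC, the growth-promoting factor that pairs with MAX, was higher at 24 h than at 4 h and under its vehicle level at both times. It read 11.54, 11.29 and 11.35 at 24 h, against 10.67, 10.46 and 10.82 at 4 h, a rise of 0.74 (SE 0.13, adjusted p = 0.00065), with a vehicle mean of 12.43. MXD4 and MXD3, which compete with MYC for MAX, also rose. MXD4 read 11.32, 11.35 and 11.41 at 24 h, against 8.85, 9.22 and 8.97 at 4 h, a rise of 2.35 (SE 0.14), and MXD3 rose by 1.49 (SE 0.12). MAX itself fell by 0.87 (SE 0.25), but its other probes ran from -0.59 to 0.32 and leaving out either of 2 arrays at 24 h ends the call. TXNIP and ARRDC4, arrestins that the MondoA factor switches on with glucose, rose by 1.43 (SE 0.12) and 1.83 (SE 0.22). In all 5 of 10 genes of the network list rose, 1 fell and 4 were not called. Over all genes tested 23.2% were higher and 22.6% lower.

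Ribosome assembly factors cut, fold and export the ribosomal subunits. Of 57 measured factors 50 fell and 2 rose, 27 of them falling by 2-fold or more, and the median was -0.99. RRP12, which exports ribosomal subunits, read 7.12, 7.36 and 7.13 at 24 h, against 9.65, 9.38 and 9.49 at 4 h, and fell by 2.30 (SE 0.12, adjusted p = 5e-08). RRP1, a factor of the large subunit, fell by 2.09 (SE 0.18), RRP9, a protein of the U3 particle detected on 2 of 3 arrays at 24 h, by 1.97 (SE 0.21) and NOLC1, a nucleolar chaperone, by 1.85 (SE 0.14). The groups did not overlap for any of these 4. NOP56, a core box C/D protein, fell by 1.22 and NCL, nucleolin, by 0.94. UBTF, the activator of RNA polymerase I, went the other way and rose by 0.87 (SE 0.16), with its other probes at 0.41 to 0.87, as did WDR74, by 0.64 (SE 0.19), a call lost without array A at 4 h. These are transcript levels of the factors, and the rate of ribosome assembly was not measured.

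CACGTG, the E-box string bound by MYC and by other factors of its class, was found on both strands in 18 of 56 promoters of the ribosome assembly list (32.1%), against 9.9% of the promoters of all genes tested. NAT10 (chr11:34105379-34105628, plus strand), an acetyltransferase of ribosomal RNA that fell by 1.18, and UTP4 (chr16:69132399-69132648, plus strand), a small subunit factor that fell by 1.19, are printed as examples with the string before the start, in capitals.
NAT10: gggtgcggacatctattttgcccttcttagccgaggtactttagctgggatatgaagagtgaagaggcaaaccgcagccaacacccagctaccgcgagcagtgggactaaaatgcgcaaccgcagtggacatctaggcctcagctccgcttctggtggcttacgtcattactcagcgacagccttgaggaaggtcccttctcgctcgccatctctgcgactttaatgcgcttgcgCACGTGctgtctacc
UTP4: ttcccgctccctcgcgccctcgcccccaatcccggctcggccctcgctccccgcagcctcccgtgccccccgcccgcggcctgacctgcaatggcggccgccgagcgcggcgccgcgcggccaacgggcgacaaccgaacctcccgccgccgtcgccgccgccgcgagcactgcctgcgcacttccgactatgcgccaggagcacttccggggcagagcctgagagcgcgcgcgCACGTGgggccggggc
CCAAT, the NF-Y string, was present in 38 of 50 promoters of the mitosis list (76%), against 35.8% over all genes tested. TGATGCAA, the C/EBP-ATF string, was in 5 of 21 promoters of serine, cysteine and asparagine synthesis (23.8%), against 0.51%. In the ATF4 response list it was in only 1 of 22 promoters (4.55%). TTCNNNGAA, the STAT string, was in 1 of 10 promoters of the STAT5 target list (10%), against 6%. No test was made of these shares, and genes with several starts count once per start.

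Of 55 cytosolic ribosomal protein genes 3 rose and 4 fell, with a median of 0.01, a share below that of all genes in both directions. RPL28 rose by 1.59 (SE 0.15) and RPL37 by 1.18 (SE 0.13), while RPL29 fell by 1.12 (SE 0.11) and RPS7 by 1.06 (SE 0.10). The mean level of the list was 13.33 to 13.36 at 24 h and 13.31 to 13.33 at 4 h, close to the top of the signal range. Of 72 mitochondrial ribosomal proteins 46 fell and 0 rose, with a median of -0.42. MRPL4 fell by 1.26 (SE 0.11), MRPL47 by 1.13 (SE 0.16), MRPS26 by 1.05 (SE 0.12) and MRPS12 by 1.03 (SE 0.09).

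Among 41 translation initiation factors 22 fell and 5 rose, with a median of -0.27. EIF4G1, the scaffold of the cap-binding complex, fell by 1.11 (SE 0.09), with 9.48, 9.52 and 9.64 at 24 h, against 10.65, 10.55 and 10.78 at 4 h. EIF2B3, a subunit of the exchange factor for eIF2, fell by 0.97 (SE 0.10), EIF6, which keeps ribosomal subunits apart, by 0.90 (SE 0.08) and EIF5A, the hypusine-carrying elongation aid, by 0.81 (SE 0.09). EIF4A2, a helicase, rose by 0.56 (SE 0.14) and EIF3F by 0.54 (SE 0.10), both calls lost under median scaling. Of 18 aminoacyl-tRNA synthetases 11 fell and 1 rose. FARSA, for phenylalanine, fell by 1.10 (SE 0.12), and WARS1, for tryptophan, by 0.89 (SE 0.11). Of 41 spliceosome proteins 23 fell and 1 rose, with a median of -0.33. PRPF19, a ubiquitin ligase of the spliceosome, fell by 0.84 (SE 0.11) and SNRPA, a protein of the U1 particle, by 0.83 (SE 0.13). HNRNPA1, a splicing repressor, fell by 1.09, but its other probe gave -0.23.

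**Figure D3:**
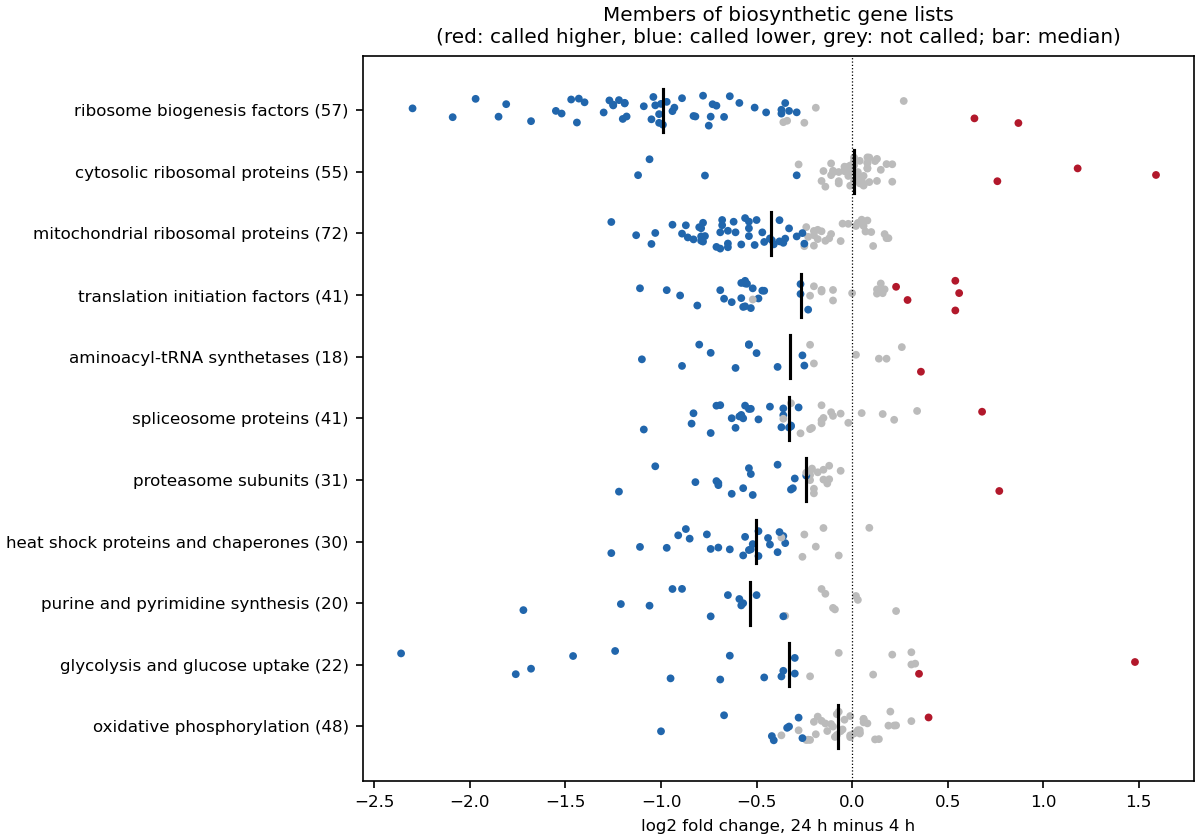
Log2 fold change, 24 h minus 4 h, of every measured member of 11 lists, with a black bar at the median of each list, red for genes called higher, blue for genes called lower and grey for genes not called. The median is -0.99 for ribosome biogenesis factors, 0.01 for cytosolic ribosomal proteins and -0.07 for oxidative phosphorylation.

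Genes of the ATF4 response, which cells raise when amino acids or protein folding run short, were mostly lower at 24 h. Of 14 measured genes 8 fell and 2 rose, with a median of -0.56. TRIB3, a pseudokinase that damps ATF4, read 8.86, 8.79 and 8.97 at 24 h, against 10.17, 10.31 and 10.45 at 4 h, and fell by 1.44 (SE 0.12). DDIT4, an inhibitor of mTORC1, read 9.77, 10.05 and 9.98 at 24 h, against 11.22, 11.32 and 11.44 at 4 h, and fell by 1.40 (SE 0.20) to near its vehicle mean of 10.12. XBP1, the transcription factor of the unfolded protein response, fell by 1.02 (SE 0.12). PPP1R15A, which restores translation after stress, rose by 0.82 (SE 0.12) and DDIT3, a death-linked factor, by 0.58 (SE 0.12).

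In the synthesis of serine, cysteine and asparagine 10 of 14 genes fell and 0 rose. PSAT1, the serine pathway transaminase, read 9.53, 9.53 and 9.37 at 24 h, against 10.75, 10.76 and 10.82 at 4 h, and fell by 1.30 (SE 0.09). CTH, which makes cysteine, fell by 1.23 (SE 0.13), GOT1, the cytosolic aspartate transaminase, by 0.95 (SE 0.08) and MTHFD1L, of mitochondrial folate metabolism, by 0.82 (SE 0.10). ASNS, asparagine synthetase, gave -0.12 (SE 0.12, adjusted p = 0.46). Of 12 amino acid transporters 7 fell and 3 rose. SLC7A5, the large neutral amino acid transporter, fell by 1.48 (SE 0.10) and SLC7A6, its relative, by 1.46 (SE 0.17). SLC6A9, the glycine transporter that supplies haem synthesis in erythroblasts, went the other way and read 8.88, 8.74 and 8.76 at 24 h, against 6.59, 6.82 and 6.91 at 4 h, a rise of 2.02 (SE 0.17).

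Of 20 genes of purine and pyrimidine synthesis 12 fell and 0 rose, with a median of -0.54. IMPDH1, of guanine nucleotide synthesis, fell by 1.72 (SE 0.09), though its other probes gave -0.60 to -0.28. PFAS, a purine ring enzyme, fell by 1.21 (SE 0.09) and NME1, a nucleoside diphosphate kinase, by 1.06 (SE 0.09), with another probe at -2.05. Of 10 polyamine genes 3 rose (30%), 3 fell (30%) and 4 were not called, where all genes tested had 23.2% higher and 22.6% lower. SRM, spermidine synthase, read 8.75, 9.09 and 8.65 at 24 h, against 10.89, 11.14 and 11.08 at 4 h, and fell by 2.21 (SE 0.13, 4.63-fold). ODC1, the first enzyme of the pathway, fell by 1.05 (SE 0.09) and AMD1, which supplies its aminopropyl groups, by 0.85 (SE 0.16). SAT1, which breaks polyamines down, rose by 1.17 (SE 0.09), AZIN1, which shields ODC1 from its antizyme, by 0.53, with other probes at -0.06 to 0.46, and PAOX, a polyamine oxidase, by 0.50.

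Glycolysis was lower at several steps, with 13 of 22 genes falling and 2 rising and a median of -0.33. PKM, the last enzyme of the pathway, read 5.89, 6.11 and 5.64 at 24 h, against 8.11, 8.28 and 8.31 at 4 h, and fell by 2.36 (SE 0.17), with other probes at -2.11 to -1.29. HK2, the inducible hexokinase, fell by 1.68 (SE 0.23), with its other probe at -2.91, and PGAM1 by 1.46 (SE 0.15). LDHA, which makes lactate, fell by 1.24 (SE 0.09), with other probes at -1.44 to -0.41. The glucose transporters parted ways. SLC2A3 read 7.41, 7.17 and 7.34 at 24 h, against 9.04, 9.07 and 9.08 at 4 h and a vehicle mean of 12.02, and fell by 1.76 (SE 0.11). By contrast SLC2A1, the form of the red cell membrane, read 13.17, 12.97 and 13.06 at 24 h, against 11.53, 11.68 and 11.54 at 4 h, and rose by 1.48 (SE 0.11).

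In oxidative phosphorylation 8 of 48 genes fell and 1 rose, with a median of -0.07, shares below those of all genes tested in both directions. ATP5MC3, a c subunit gene of ATP synthase, fell by 1.00 (SE 0.14) and its relative ATP5MC1 by 0.67 (SE 0.11). Of 26 genes of sterol and fatty acid synthesis 9 fell (34.6%) and 3 rose (11.5%), where all genes tested had 22.6% lower and 23.2% higher. FASN, fatty acid synthase, fell by 0.96 (SE 0.12) and DHCR7, the last step to cholesterol, by 0.78 (SE 0.09), while TM7SF2, a sterol reductase, rose by 1.53 (SE 0.14).

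Metallothioneins and zinc transporters fell as a group, 11 of 13 lower and 2 higher, with a median of -0.94. Beside MT1X, MT1E fell by 1.67 (SE 0.20), MT1G by 1.32 (SE 0.15) and MT2A by 0.87 (SE 0.16), and the copies of this family are too alike for their probes to be told apart with certainty. Array C read highest at 4 h for MT1E too, at 9.88, against 9.11 and 9.06 on the others. SLC30A1, a zinc exporter that metal induces, fell by 0.80 (SE 0.14). SLC39A8, a zinc importer, read 11.03, 11.14 and 11.02 at 24 h, against 9.68, 9.33 and 9.52 at 4 h, and rose by 1.55 (SE 0.12), and SLC30A10, a manganese exporter, rose by 1.37 (SE 0.16), detected on 2 of 3 arrays at 4 h. Among 19 antioxidant genes 9 fell and 3 rose. NQO1, a quinone reductase that NRF2 induces, fell by 1.59 (SE 0.14), its other probe giving -0.62, and GCLM, of glutathione synthesis, by 1.09 (SE 0.11). GLRX, glutaredoxin, read 8.62, 8.82 and 8.33 at 24 h, against 6.45, 6.42 and 5.26 at 4 h, and rose by 2.54 (SE 0.27), where array C at 4 h was undetected.

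Genes of quiescence and of FOXO factors, which are active when PI3K signalling is off, were higher. Of 21 measured 18 rose and 0 fell, with a median of 0.73, or 0.72 with undetected members at their bound. YPEL3, a growth-inhibitory protein of a family linked to senescence, read 9.26, 9.26 and 9.24 at 24 h, against 6.19, 6.20 and 6.15 at 4 h, and rose by 3.08 (SE 0.08). YPEL5 rose by 2.21 (SE 0.13), PIK3IP1, an inhibitor of PI3K, by 1.62 (SE 0.18) and PINK1, the kinase that marks damaged mitochondria, by 1.58 (SE 0.14). FOXO3 itself rose by 0.98 (SE 0.12).

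Of 15 D cyclins and inhibitors of cyclin-dependent kinases 6 rose and 2 fell, with a median of 0.28, or 0.13 with undetected members at their bound. CCND2 read 5.68, 5.82 and 5.57 at 24 h, against 7.40, 7.35 and 7.17 at 4 h, and fell by 1.61 (SE 0.16), with its other probe at -0.75. CCND3, the D cyclin of erythroblasts, read 13.44, 13.29 and 13.47 at 24 h, against 12.35, 12.54 and 12.47 at 4 h, and rose by 0.95 (SE 0.09). CDKN1C, the p57 inhibitor, rose by 1.09 (SE 0.22). CDKN1A, the p21 inhibitor, fell by 0.80 (SE 0.14), and CDKN1B, p27, gave 0.28 (SE 0.12, adjusted p = 0.084). Of 45 mitotic genes 13 rose, 1 fell and 31 were not called, with a median of 0.15, where all genes tested had 23.2% higher. NUSAP1, a spindle protein, rose by 0.92 (SE 0.09), KIF4A, a chromosome motor, by 0.71 (SE 0.15) and CENPE, a kinetochore motor, by 0.69 (SE 0.11), whereas PLK1, a mitotic kinase, fell by 0.45 (SE 0.11), a call lost under median scaling. In DNA replication 5 of 42 rose and 7 fell, a share below that of all genes in both directions, with CCNE1, cyclin E, falling by 0.74 (SE 0.10) and LIG1, a DNA ligase, rising by 0.68 (SE 0.09).

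Of 28 replication-dependent histone genes 14 rose and 3 fell, with a median of 0.34. H4C2 read 8.55, 8.83 and 8.85 at 24 h, against 6.15, 6.24 and 5.57 at 4 h, and rose by 2.75 (SE 0.19), and H4C1 was at least 3.07-fold higher. The mRNAs of these genes end in a stem-loop and mostly lack a poly(A) tail, and histone copies are too alike for each probe to be assigned with certainty.

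In the BCL2 family and death pathway 6 of 18 genes fell (33.3%) and 2 rose (11.1%). Over all genes tested 22.6% were lower and 23.2% higher. TNFRSF10A, a TRAIL receptor, fell by 1.25 (SE 0.19) and BAK1, a pore-forming death effector, by 1.14 (SE 0.23). CFLAR, which blocks caspase-8, read 7.92, 7.79 and 8.12 at 24 h, against 6.91, 6.69 and 6.22 at 4 h, and rose by 1.34 (SE 0.16) to near its vehicle mean of 8.14. BCL2L1, the survival gene of erythroid cells, gave 0.16 (SE 0.14, adjusted p = 0.38), MCL1 -0.11 (SE 0.12) and BCL2L11, which encodes BIM, -0.20 (SE 0.12), none of them called.

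Chaperones fell broadly, 23 of 30 lower and 0 higher, with a median of -0.51. HSPA5, the BiP chaperone of the endoplasmic reticulum, fell by 1.26 (SE 0.20) and was detected on 1 of 3 arrays at 24 h. HSPA4L, an HSP110 family protein, fell by 1.11 (SE 0.14), and PDIA4, a disulfide isomerase, by 0.97 (SE 0.17). Of 31 proteasome genes 16 fell and 1 rose. PSME3, an activator cap of the nuclear proteasome, fell by 1.22 (SE 0.09) and PSMD8, a lid subunit, by 1.03 (SE 0.14), while PSME1, of the interferon-inducible cap, rose by 0.77 (SE 0.09).

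Of 27 autophagy genes 11 rose, 2 fell and 14 were not called, with a median of 0.29, where all genes tested had 23.2% higher. OPTN, a mitophagy receptor, read 7.85, 7.68 and 7.46 at 24 h, against 5.47, 5.44 and 5.27 at 4 h, and rose by 2.27 (SE 0.16), detected on 2 of 3 arrays at 4 h. GABARAP, which coats autophagosomes, rose by 1.27 (SE 0.18) and BNIP3L, which clears mitochondria from maturing red cells, by 1.20 (SE 0.17). SQSTM1, the p62 cargo receptor, fell by 0.30 (SE 0.09), a call lost under median scaling. Of 31 lysosome genes 15 rose and 5 fell. GRN, progranulin, rose by 1.72 (SE 0.17), CTSB, cathepsin B, by 1.71 (SE 0.12) and TPP1, a lysosomal peptidase, by 1.32 (SE 0.13), while CTSC, cathepsin C, fell by 1.10 (SE 0.10).

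Interferon-stimulated genes split, 9 higher (50%) and 6 lower (33.3%) of 18, where all genes tested had 23.2% higher and 22.6% lower. IFI6, a mitochondrial interferon-induced protein, rose by 1.66 (SE 0.27), with its other probe at 0.45, IFI35 by 0.94 (SE 0.13), and IRF9 and IRF1, factors of the pathway, by 0.91 (SE 0.11) and 0.80 (SE 0.12). BST2, tetherin, fell by 0.70 (SE 0.09). Of 22 tubulin and cytoskeleton genes 8 fell (36.4%, against 22.6% of all genes tested) and 1, TUBB1, rose (4.55%, against 23.2%). TUBB3, the neuronal form, fell by 1.41 (SE 0.12), TUBB2B by 1.03 (SE 0.26), and KRT8, a keratin, by 0.87 (SE 0.14). Of 12 common reference genes 2 rose (16.7%) and 3 fell (25%), a falling share near the 22.6% of all genes tested. Their median was -0.04, and all stayed within 0.50 log2 units.

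**Figure D4:**
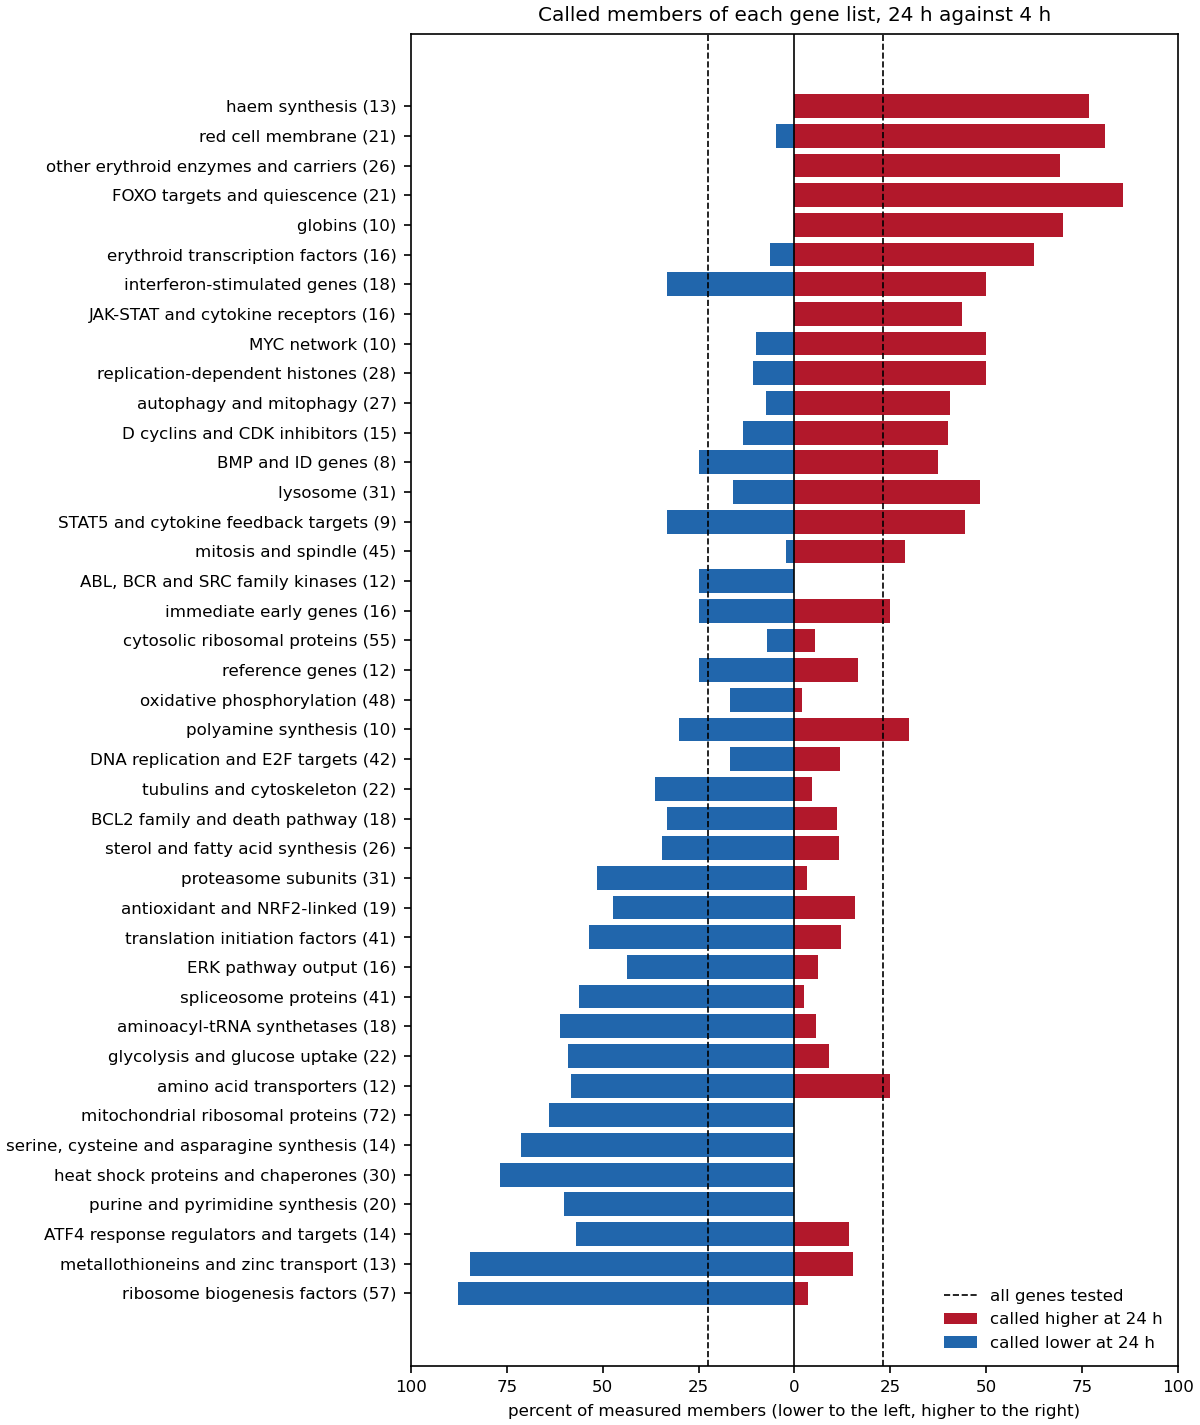
Share of the measured members of each gene list with at least 8 measured members that was called higher at 24 h (red, right of 0) or lower at 24 h (blue, left of 0), with lists ordered by median change and the number measured in brackets. Dashed lines mark the shares among all genes tested, 23.2% higher and 22.6% lower, and haem synthesis lies at one end and ribosome biogenesis factors at the other.

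The noncoding RNAs that make up 8 of the 15 largest rises belong to the splicing, ribosome assembly and transcription machineries. They were grouped by symbol after their values had been seen, so the counts are a description. RNA5S9, a 5S ribosomal RNA, read 13.46, 13.59 and 13.45 at 24 h, against 9.59, 9.58 and 9.21 at 4 h, and rose by 4.04 (SE 0.13, 16.4-fold). RN7SK, which holds the elongation factor P-TEFb inactive, read 12.42, 12.56 and 12.66 at 24 h, against 9.02, 9.28 and 9.15 at 4 h, and rose by 3.40 (SE 0.13), its other probe giving 4.75. RNU1-3, a U1 spliceosomal RNA, read 12.58, 12.78 and 12.70 at 24 h, against 8.77, 9.08 and 9.09 at 4 h, and rose by 3.71 (SE 0.16). In each of these genes the groups lay over 2 log2 units apart, and RNU1-1, RNVU1-7 and RNVU1-18, U1 copies too alike for their probes to be told apart, rose by 3.24, 3.60 and 3.63. RNU4-2, a U4 RNA, rose by 3.55 (SE 0.24).

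Of 12 spliceosomal RNAs 11 rose and 0 fell, with a median of 2.47, the exception being RNU5A-1 at 0.27. The 3 copies of U3, the RNA that guides early cleavage of ribosomal RNA, rose by 2.84 to 3.35. Ribosomal RNA probes rose by 1.91 (SE 0.17) for 18S, RNA18SN5, and 0.56 (SE 0.13) for 28S, RNA28SN5, whose other probe gave 2.51. Of 10 other transcripts of RNA polymerase III 6 rose and 1 fell, with RMRP, the RNA of a processing ribonuclease, at 2.00 (SE 0.27) and detected on 1 of 3 arrays at 4 h, and RPPH1, the RNA of RNase P, at 1.60 (SE 0.14). RN7SL1, the RNA of the signal recognition particle, read 14.38, 14.26 and 14.27 at 24 h, against 14.40, 14.26 and 14.43 at 4 h, with overlapping groups. These values lay near the top of the signal range, where a rise may not show. Of 13 small Cajal body RNAs 9 rose and 1 fell. Of 60 box C/D guide RNAs other than U3 11 rose and 13 fell, with a median of -0.11. Of 49 box H/ACA guide RNAs 7 rose and 6 fell, with a median of -0.03. Over all genes tested 23.2% were higher and 22.6% lower. At 2-fold or more 5 of these box C/D RNAs rose and 1 fell, and 2 box H/ACA RNAs rose and 0 fell.

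At 8 h these noncoding RNAs lay near their 4 h level. The median of the spliceosomal RNAs was -0.08 at 8 h minus 4 h and that of U3 -0.22, against 2.47 and 3.03 at 24 h minus 4 h. RNA5S9 averaged 9.61 at 8 h and RN7SK 9.28, next to vehicle means of 9.58 and 8.93. Most of these RNAs have no poly(A) tail, and amplification kits of the kind named in the labels prime on such tails, so the array reads whatever part of each RNA the kit copies. The total amount of these RNAs was not measured.

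Erythroid genes differed in when they moved. SLC4A1 was undetected at 4 h and 8 h, at means of 4.92 at 8 h and 10.02 at 24 h, whereas EPB42 had a mean of 6.44 and AQP1 of 7.09 at 8 h, between their 4 h and 24 h levels. CA1 averaged 7.93 and ALAS2 10.46 at 8 h. Some other genes lay at 24 h near their vehicle mean, with a 4 h mean above it (MT1X, DDIT4) or below it (CFLAR), and others were low at every dasatinib time, such as EGR1 and CISH. No vehicle was harvested at 4 h. ETV5 was at 4.57 at 8 h, already as low as at 24 h.

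**Figure D5:**
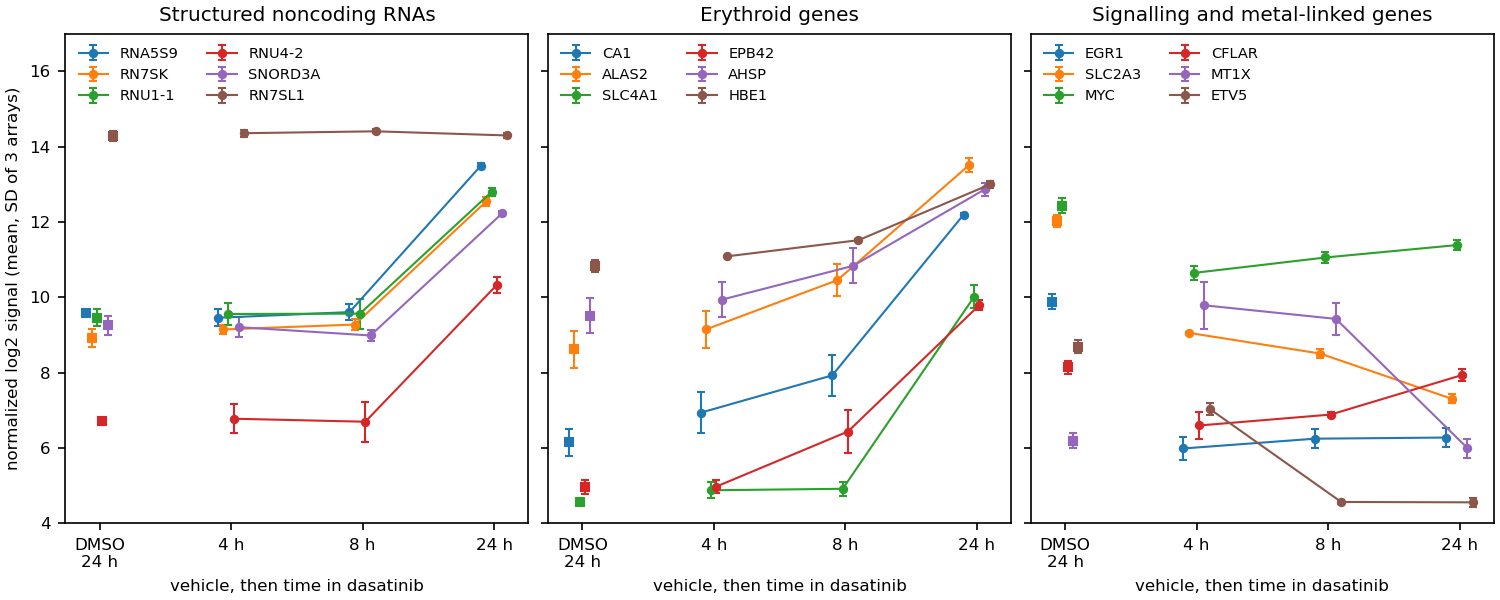
Mean normalized log2 signal with SD over 3 arrays for 18 genes, with vehicle at 24 h as squares and then 4 h, 8 h and 24 h of dasatinib as joined circles, spaced evenly and not to scale in time. Of the 6 noncoding RNAs, 5 stay level until 8 h and are high at 24 h. RN7SL1 is level throughout, near the top of the signal range. Erythroid genes climb with SLC4A1 low through 8 h, and MT1X is high at 4 h and 8 h only.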

How the data were processed

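Per the labels, RNA was purified on columns with DNase and amplified to biotinylated cRNA for Illumina BeadChips. The authors deposited probe signals, in intensity units and by their values neither background-subtracted nor normalized, each with a detection p-value per the file headers. A deposited value table, log2-like and quantile-normalized by its values, with no stated method, served as an alternative. BMS in the signal headers, which give a group and a letter, was read as dasatinib.

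Signals were processed with neqc of limma 3.58.1 (R 4.3.3, statmod 1.5.0): normexp background from detection p-values, offset 16, quantile normalization, log2. Background correction widens and the offset narrows changes of dim genes. Of 47314 probes 30108 named 1 gene, 8 several and 17198 none. Probes with detection p under 0.05 on all 3 arrays of a group passed (17625, of which 13397 with 1 gene). The passing probe with the highest mean stood for each of 2604 genes with several, leaving 10208 genes; FOS, BCL6 and CHAC1 did not pass. All 12 arrays were fitted with 1 mean per group (8 residual and 4.08 prior degrees of freedom), and 24 h minus 4 h was tested with two-sided moderated p-values. The number of arrays limits precision. For a bound, undetected values were raised to the lowest normalized value of a detected probe on that array. The fit was tested on simulated data.

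The comparison, the 45 gene lists and the genes fixed by name were chosen with earlier results of these data known. Lists share members and are given by counts and medians without a test. Named genes were the 15 largest called rises and falls detected on all 6 arrays, the 8 largest bounds each way, up to 4 called members per list and up to 2 against its majority, and the fixed set; further members were named after their values were seen. Alternatives changed the arrays fitted, background, offset, normalization, filter, probe choice, weights and replicate block, used the authors' table, or left out each array.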

Additional observations from a re-analysis of the deposited data

Results flagged for a closer look

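A further 4228 passing probes name no single gene and were tested apart from the genes. Of these 1098 were called at 24 h against 4 h (26%), 500 higher and 598 lower, by the limma fit with adjustment over those probes. Of the higher ones, 467 were detected on all 3 arrays at 24 h and lay above all 3 DMSO arrays. The largest change was 6.07 (SE 0.22, adjusted p = 1.2e-08), in probe ILMN_3285762, with a mean normalized log2 signal of 10.98 at 24 h, against 4.91 at 4 h, 5.17 at 8 h and 4.95 in DMSO. Probe ILMN_1718621 rose by 4.18 (SE 0.20), with means of 11.44 at 24 h and 7.26 at 4 h, and probe ILMN_2389970 by 3.65 (SE 0.22), with means of 9.61 at 24 h and 5.96 at 4 h. These were noted as a signal in probes outside the gene-level comparison, and the transcripts they measure were not identified here.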

How the results depend on the processing

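Counts of called genes stayed within 1.5 times under each alternative that was run, except that median scaling in place of quantile normalization called 1455 genes lower (3210 in all, 1755 higher). The replicate block gave 4782 called genes and 1002 at 2-fold. Over all genes, same-letter arrays of 24 h and 4 h had deviations correlated at 0.13, -0.08 and 0.09. The main fit did not pair samples by letter, and this check cannot exclude a shared letter effect in single genes. With the block the SE went from 0.29 to 0.15 for AHSP and from 0.28 to 0.15 for ALAS2. Counts at 2-fold moved to 367 without background correction (223 higher, 144 lower), to 656 with an offset of 50 (400 higher, 256 lower), to 233 with the authors' values (140 higher, 93 lower), and to 1549 with every passing probe tested on its own. Leaving out 1 array gave 4071 to 4281 called genes (2069 to 2178 higher, 2002 to 2103 lower) and 993 to 1042 at 2-fold (577 to 616 higher, 416 to 434 lower). Of the genes named by rule none reversed direction past the threshold, and median scaling ended the call of 19, the most under any alternative. The sign of the list median changed under some alternative for megakaryocyte genes (-0.10 to 0.15), immediate early genes (-0.04 to 0.09) and reference genes (-0.11 to 0.04). Chip as a block was not run, since the headers name no chips. Signals near background or near the top of the range limit what a change can show.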
